A study of Rattus norvegicus with 20 samples.

Results

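Iron uptake and export were followed through 10 genes, taken from the gene table by symbol: Tf, Tfrc, Steap3, Steap4, Slc11a2, Slc11a1, Slc40a1, Cp, Hp and Ireb2. Of these, 9 had a row among the 32545 genes of the table, and all 9 passed the filter that left 17653 genes for testing. Slc40a1, the gene of the iron exporter ferroportin, had no row under that symbol and was not analysed here. No member encodes a ferritin, so iron storage is covered below only by the ferritin genes Fth1 and Ftl1 of a wider list. The libraries are bulk RNA sequencing of inguinal white adipose tissue (iWAT), a subcutaneous fat depot, from male ZSF1 rats, with 5 rats in each of 4 groups.

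Cmpd 1 animals were ZSF1 obese rats fed Purina 5008 chow mixed with Cmpd 1, an inhibitor of the kinases PKCα and PKCβ, at about 50 mg per kg body weight per day. Food matched animals were ZSF1 obese rats given a restricted amount of drug-free Purina 5008 chow. The amount was set each week to the estimated intake of the Cmpd 1 group in the week before. The phenotype label of the Food matched animals reads lean, against their titles and the study's methods, and they were taken as obese. Obese animals were untreated ZSF1 obese rats on Purina 5008 chow, and Lean animals were untreated ZSF1 lean rats on the same chow. All were about 32 weeks old at the end of the 10-week study. Obese rats of this cross carry 2 mutant copies of the leptin receptor gene and lean rats do not, so adiposity, food intake and the missing receptor cannot be told apart in Obese versus Lean. The question of Obese versus Lean is which genes differ with disease. That of Cmpd 1 versus Food matched is which genes differ with the compound at a roughly matched intake. By the paper, intake in the Cmpd 1 group had risen close to that of the Obese group at the end. Cmpd 1 rats also ended with lower body weight and less iWAT than Food matched rats. Compound, body weight and fat mass therefore cannot be told apart in this contrast.

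Iron travels in blood bound to transferrin, enters cells when transferrin binds its receptor and is taken up into endosomes, and is reduced there before a divalent metal transporter passes it into the cytosol. Iron that is not used is held in ferritin or leaves the cell through ferroportin, aided by ferroxidases that load it onto transferrin. Iron regulatory proteins bind stem-loops in the mRNAs of several of these genes and set their stability or translation to the iron in the cell. In fat, macrophages recycle iron from cells and haem, and adipocytes need it for their mitochondria. The counts below are of mRNA, which does not report on the translational step of this control.

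The gene counts summed to between 31716457 reads (Cmpd 1 rat 4) and 74784655 reads (a Food matched rat) per library. A gene was called differentially expressed (DEG) at an adjusted p under 0.05 in edgeR's quasi-likelihood test together with more than 1.5-fold change, and a gene past the adjusted p alone is given as changed but not a DEG. Levels are CPM, each gene's reads as a share of the scaled library size. Adipoq, an adipocyte hormone, was at 2761 CPM or more in all 20 libraries, and no marker of the adipocyte list was at 0 in every rat of a group. Other tissues were also present: the 6 skeletal muscle markers summed to 2801 and 4848 CPM in Lean rats 1 and 2, and to at most 78.4 CPM elsewhere. The 8 hepatocyte markers, of interest because Tf, Cp and Hp are also liver genes, summed to 15.7 to 25.5 CPM in Cmpd 1, 7.35 to 14.8 CPM in Food matched, 15.9 to 18.97 CPM in Obese and 97.6 to 198 CPM in Lean animals. Most of that sum was Alb in every group, Ttr was at 0 in every Cmpd 1 rat, and Apob reached 36.2 CPM in a single Lean rat and no more than 0.246 CPM in the Cmpd 1, Food matched and Obese groups.

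Set against each other per kilobase of gene length, Tf was the most abundant member in every group, at 150 ± 16.0 CPM per kilobase (SD, n = 5 rats) in Cmpd 1, 203 ± 26.9 in Food matched, 188 ± 15.5 in Obese and 145 ± 13.2 in Lean animals. Steap4 and then Steap3 followed, at 46.8 ± 5.61 and 29.5 ± 2.99 CPM per kilobase in Cmpd 1 animals and at 63.6 ± 8.07 and 33.8 ± 2.47 CPM per kilobase in Lean animals. Steap3 and Cp, its neighbour in this order, had overlapping ranges in Lean animals and were apart in the other groups. Cp, Slc11a2 and Ireb2 followed, between 13.3 and 29.0 CPM per kilobase as group means. Cp was the highest of these, its range overlapped that of its neighbour in Cmpd 1, Food matched and Obese animals, and Slc11a2 and Ireb2 traded places between groups. Slc11a1 and Tfrc had separate ranges in Cmpd 1 and Lean animals, whereas they overlapped in Food matched animals at 8.15 ± 1.02 and 8.18 ± 0.352 CPM per kilobase, and in Obese animals. Hp was the least abundant by uniquely mapped reads, at 1.61 ± 0.182 CPM per kilobase in Cmpd 1 and 1.02 ± 0.135 in Lean animals.

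**Figure D1:**
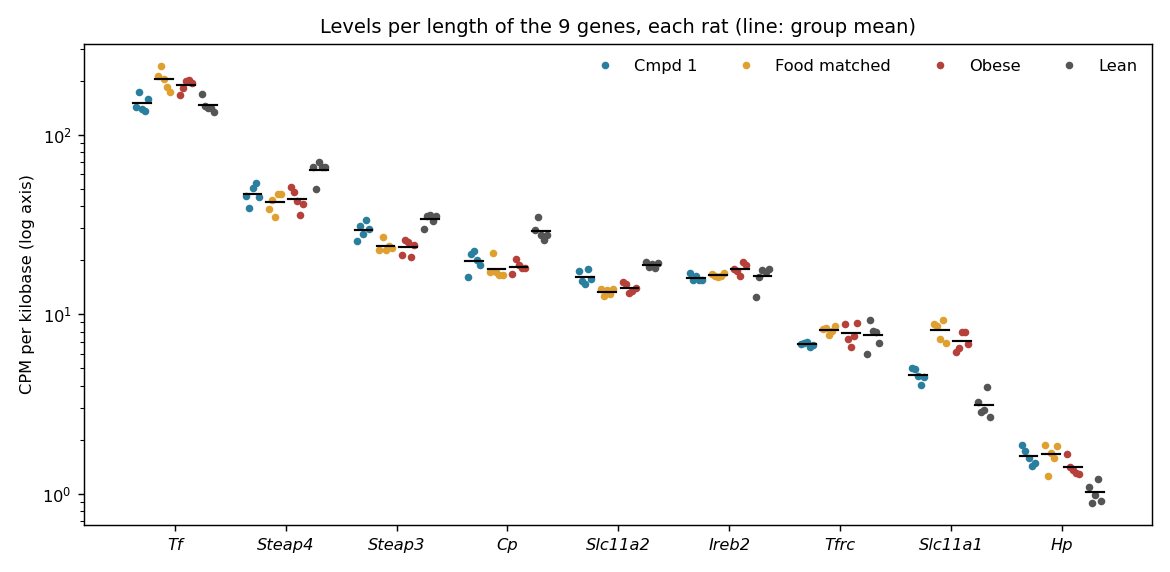
CPM per kilobase of gene length (log axis) for the 9 genes, with a point for each rat, a line at each group mean, and the groups Cmpd 1, Food matched, Obese and Lean from left to right within each gene. Tf stands highest in all 4 groups and Hp lowest, and Slc11a1 shows the widest spread between groups on this axis. Genes of similar level overlap or trade places between groups, among them Slc11a2 with Ireb2 and Slc11a1 with Tfrc.

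The disease contrast moved members in both directions. In Obese versus Lean animals 7 of 9 members changed, of which Slc11a1, Tf and Hp were higher and Cp, Slc11a2, Steap3 and Steap4 lower in Obese animals. Among all genes tested 48.2% changed in this contrast, 23.7% higher and 24.5% lower. As DEGs 2 of 9 were called, Slc11a1 (higher) and Cp (lower), where 22.3% of all genes were DEGs (11.3% higher and 11% lower). The median log2 fold change was 0.03 over the members and −0.01 over all genes tested.

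With the compound, at a roughly matched food intake, 5 of 9 members changed. In Cmpd 1 versus Food matched animals Slc11a1, Tf and Tfrc were lower and Slc11a2 and Steap3 higher, where 22.8% of all genes changed, with 11.4% in each direction. Slc11a1 was the 1 DEG of the 9, where 6.19% of all genes were DEGs (1.54% higher and 4.65% lower). Of the 9 members, 4 changed in both contrasts, and each of the 4 moved in opposite directions: Slc11a1 and Tf were higher in Obese than in Lean and lower with Cmpd 1, and Slc11a2 and Steap3 were lower in Obese than in Lean and higher with Cmpd 1. Opposite directions were the rule across the table, since 3016 of the 3126 genes that changed in both contrasts also moved that way, which is 17.1% of all genes tested. These contrasts share no library.

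**Figure D2:**
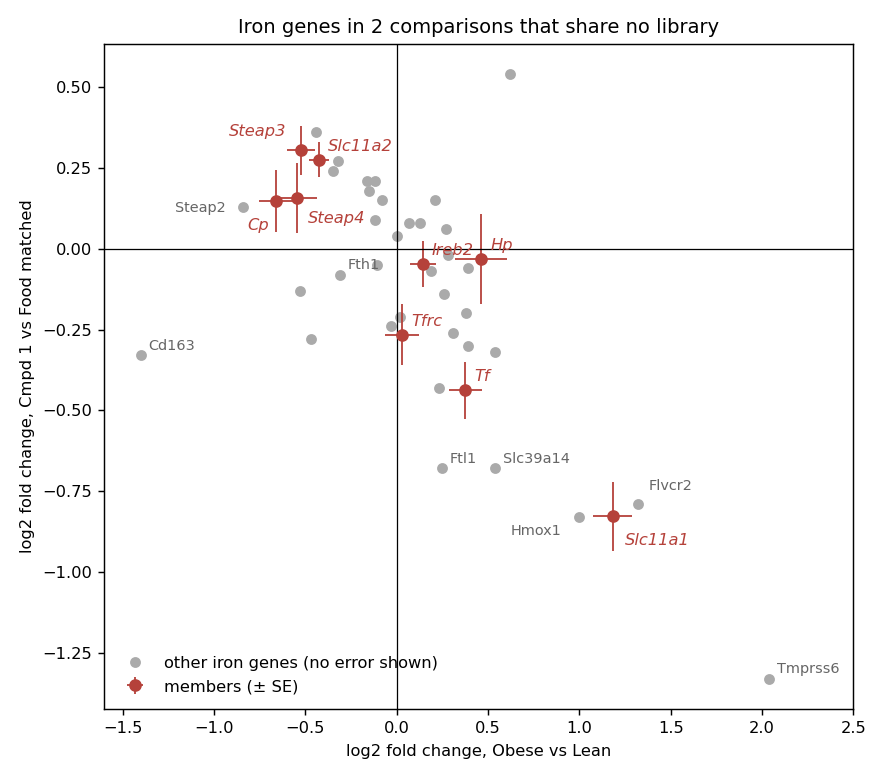
Log2 fold change for Obese versus Lean (x axis) against log2 fold change for Cmpd 1 versus Food matched (y axis), with red points and standard errors for the 9 members and grey points for 36 other iron genes, without Hfe2. Slc11a1 sits at the lower right (1.18 and −0.83) beside Hmox1 and Flvcr2, and Slc11a2 and Steap3 at the upper left, while Hp, Ireb2 and Tfrc lie close to 1 of the axes.

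Slc11a1 (NRAMP1), which moves divalent metals out of the phagosomes of macrophages, had the largest change of the members in both main contrasts. The gene (chromosome 9 of rn6, 81655629 to 81666706, plus strand) was at 14.9, 14.5, 13.4, 11.9 and 13.1 CPM in Cmpd 1 rats 1 to 5, and at 26.0, 25.4, 21.4, 27.3 and 20.4 CPM in Food matched rats. It was at 18.3, 19.2, 23.5, 23.6 and 20.1 CPM in Obese rats and at 9.55, 8.43, 8.60, 11.6 and 7.92 CPM in Lean rats. Every Cmpd 1 rat was below every Food matched and every Obese rat and above every Lean rat, while Food matched and Obese rats overlapped. Cmpd 1 versus Food matched gave a log2 fold change of −0.83 (SE 0.11, edgeR adjusted p = 6.8e-05), and Obese versus Lean gave 1.18 (SE 0.11, edgeR adjusted p = 2.1e-08). Under the 17 alternatives for Cmpd 1 versus Food matched its value ranged between −0.88 and −0.78, and it stayed a DEG in each, as it did under the 18 for Obese versus Lean.

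Macrophage markers moved with Slc11a1. The 10 markers summed to 2493 to 3606 CPM in Cmpd 1 and 3737 to 6686 CPM in Food matched animals. The sum was 3491 to 5045 CPM in Obese and 1405 to 1792 CPM in Lean animals, and no marker was at 0. Lyz2 was the largest single marker, with medians of 1670 CPM in Cmpd 1, 2793 CPM in Food matched, 2312 CPM in Obese and 523 CPM in Lean rats. In Cmpd 1 versus Food matched all 10 markers were lower with an adjusted p under 0.05, 6 of them DEGs, with a median log2 fold change of −0.63. In Obese versus Lean 9 of 10 were higher and 1 (Cd14) lower, the 7 DEGs were all higher, and the median was 1.54. In a bulk sample fewer cells of a type and less RNA per cell cannot be told apart, and the part of macrophage number in the values of Slc11a1 was not tested. The genes whose log2 CPM followed that of Slc11a1 most closely over the 20 libraries, among 12035 with a symbol and a mean of at least 1 CPM, were Sat1, a polyamine acetyltransferase (Pearson r = 0.981), Myo7a, an unconventional myosin (0.981), and Scimp, an adaptor protein of antigen-presenting cells (0.977). Deviations from the group means gave r of 0.791, 0.818 and 0.773 for these genes. The libraries share groups and scaling, so these are descriptions.

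**Figure D3:**
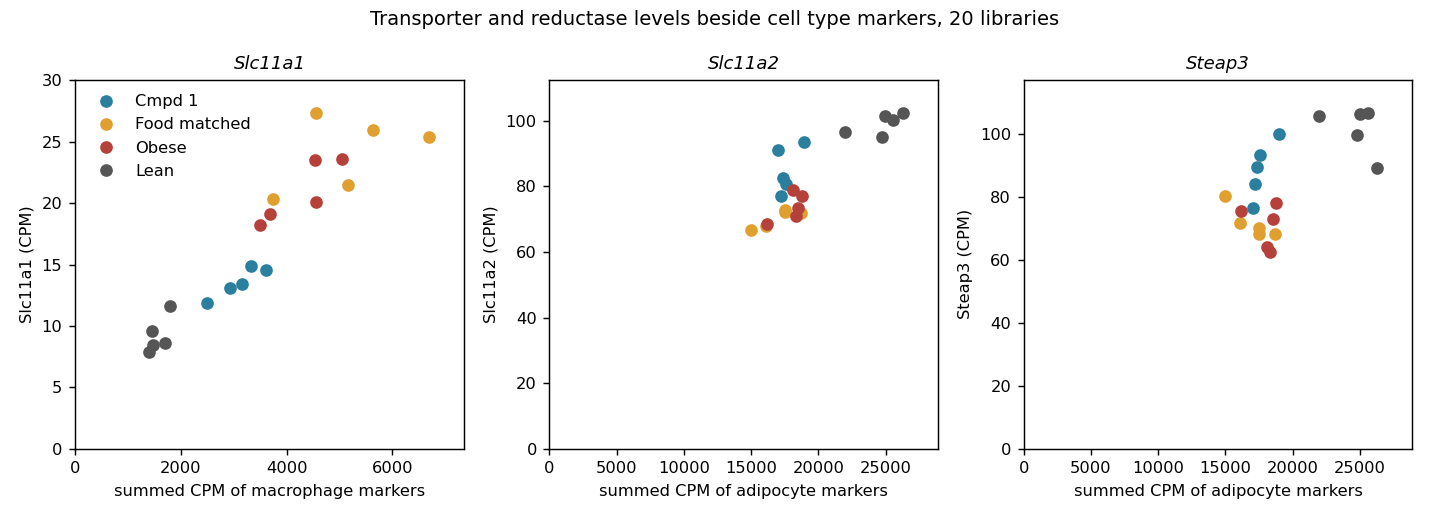
Slc11a1 (left panel, CPM) against the summed CPM of 10 macrophage markers, and Slc11a2 (middle) and Steap3 (right) against the summed CPM of 8 adipocyte markers, with a point for each of 20 libraries coloured by group. Slc11a1 and the macrophage sum both order the groups with Lean lowest, then Cmpd 1, then Obese and Food matched. Adipocyte sums of Cmpd 1 rats, 17025 to 18958 CPM, overlap the 14993 to 18707 CPM of Food matched rats. The largest single marker there, Fabp4, was lower with Cmpd 1 (6774 to 7824 against 8003 to 9943 CPM). Adipoq (4144 to 5169 against 2761 to 3787 CPM) and Lipe (1044 to 1447 against 759 to 922 CPM) were higher. At an adjusted p under 0.05 in edgeR, 5 of the 8 were higher and 1 lower. Pnpla2, also on the list, was at no more than 1.22 CPM in any rat.

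Slc11a2 and Steap3 moved the opposite way from Slc11a1. Slc11a2 (DMT1) passes ferrous iron out of endosomes, and Steap3 is a ferrireductase that works beside it in the transferrin cycle, best known from red cell precursors. Slc11a2 (chromosome 7 of rn6, 142025815 to 142063212, minus strand) was at 91.1, 80.8, 77.0, 93.6 and 82.5 CPM in Cmpd 1 rats, and at 72.2, 66.6, 71.7, 67.8 and 72.8 CPM in Food matched rats. It was at 79.0, 77.1, 68.5, 70.9 and 73.5 CPM in Obese rats and at 102, 96.5, 100.2, 94.95 and 101 CPM in Lean rats. All Cmpd 1 rats lay above all Food matched rats and below all Lean rats. Slc11a2 was higher with Cmpd 1 than in Food matched animals by 0.28 on the log2 scale (SE 0.05, edgeR adjusted p = 0.0011), and its value for Obese versus Lean was −0.42 (SE 0.05, edgeR adjusted p = 1.5e-06). Neither change reached a fold of 1.5 (1.21-fold and 1.34-fold).

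Steap3 (chromosome 13 of rn6, 36257112 to 36290531, minus strand) was at 76.4, 93.4, 83.9, 99.99 and 89.5 CPM in Cmpd 1 rats and at 68.1, 80.3, 68.2, 71.8 and 70.2 CPM in Food matched rats. Obese rats had 64.1, 77.9, 75.4, 62.6 and 73.0 CPM, against 89.2, 106, 107, 99.5 and 106 CPM in Lean rats. Cmpd 1 rat 1, the lowest of its group, lay under Food matched rat 2, the highest of its group, and the other rats of these groups did not cross. Steap3 was higher with Cmpd 1 by 0.31 on the log2 scale (SE 0.08, edgeR adjusted p = 0.0062) and had a value of −0.52 for Obese versus Lean (SE 0.08, edgeR adjusted p = 8.8e-06). Beside these genes, 5 of 8 adipocyte markers were higher and 1 was lower in Cmpd 1 relative to Food matched rats at an adjusted p under 0.05. The median log2 fold change of the markers was 0.34. In Obese versus Lean animals 6 of 8 were lower, with a median of −0.68. The list includes Pnpla2, which was at no more than 1.22 CPM in any rat. Red blood cell markers also moved with the disease values: they summed to 450 to 1204 CPM in Obese rats and 1085 to 2902 CPM in Lean rats, and 3 of the 5 tested were DEGs, all lower in Obese animals, with a median of −1.47. In Cmpd 1 versus Food matched 0 of the 5 passed the test in edgeR (median −0.10). The parts of adipocyte and red cell content in Slc11a2 and Steap3 were not tested.

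Slc11a2 and Steap3 shared their direction of change in both main contrasts, and whether they vary together between rats was not tested. The 250 bases before their RefSeq starts are shown (GRCr8, a later build than the rn6 of the counts). Slc11a2 has 2 annotated starts within this locus, at chr7:133417789-133418038, minus strand, and chr7:133418940-133419189, minus strand, and Steap3 has 1, at chr13:33944357-33944606, minus strand. Capitals mark matches on either strand to 5 motifs: the hypoxia response core ACGTG, the antioxidant response element TGACNNNGC, the nuclear receptor hexamer AGGTCA, the CCAAT box CCAAT and the TATA box TATAAA.
Slc11a2 start 1: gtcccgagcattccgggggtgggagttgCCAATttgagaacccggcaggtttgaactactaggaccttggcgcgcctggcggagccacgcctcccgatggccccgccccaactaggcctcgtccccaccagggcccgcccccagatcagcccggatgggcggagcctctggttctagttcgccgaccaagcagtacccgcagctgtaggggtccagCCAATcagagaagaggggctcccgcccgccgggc
Slc11a2 start 2: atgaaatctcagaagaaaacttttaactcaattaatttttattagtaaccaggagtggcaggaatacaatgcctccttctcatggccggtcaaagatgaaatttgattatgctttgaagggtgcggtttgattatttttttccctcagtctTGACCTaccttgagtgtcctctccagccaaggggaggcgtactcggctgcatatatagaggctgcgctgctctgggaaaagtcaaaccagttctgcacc
Steap3: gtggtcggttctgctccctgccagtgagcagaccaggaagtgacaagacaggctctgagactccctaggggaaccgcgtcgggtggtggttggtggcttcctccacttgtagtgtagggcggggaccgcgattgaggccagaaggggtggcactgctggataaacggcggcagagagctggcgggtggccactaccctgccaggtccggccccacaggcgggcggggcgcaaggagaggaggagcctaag
Start 1 of Slc11a2 held 2 matches to the CCAAT box, and start 2 held 1 match to AGGTCA. Of 33469 rat promoters of this length, 34.0% hold at least 1 match to the CCAAT box and 14.1% at least 1 to AGGTCA. The Steap3 window held none of the 5 motifs. The shares for the other motifs were 16.6% for ACGTG, 10.1% for TGACNNNGC and 12.9% for TATAAA. A match of letters is a description only, and the Slc11a2 and Steap3 windows share no motif of the 5.

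Tf and Tfrc, the carrier and its receptor, both fell in Cmpd 1 relative to Food matched animals, Tfrc only narrowly. Tf (chromosome 8 of rn6, 111673547 to 111721333, minus strand), a secreted protein made mostly by liver, was at 465, 568, 456, 441 and 517 CPM in Cmpd 1 rats and at 697, 789.7, 666, 603 and 562 CPM in Food matched rats. It was at 540.1, 591, 654, 663 and 635 CPM in Obese rats and at 549.7, 469, 461, 458 and 437 CPM in Lean rats. Only Cmpd 1 rat 2 reached above the lowest Food matched rat, and only Lean rat 1 above the lowest Obese rat. Tf had a log2 fold change of −0.44 for Cmpd 1 versus Food matched (SE 0.09, edgeR adjusted p = 0.0016) and of 0.38 for Obese versus Lean (SE 0.09, edgeR adjusted p = 0.0016). The hepatocyte sum, mostly Alb, was 15.9 to 18.97 CPM in Obese rats and 97.6 to 198 CPM in Lean rats. The part of liver RNA in the values of Tf was not tested.

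The Tf window, shown because it held the most different motifs of the members' windows, lies at chr8:112695377-112695626, minus strand (GRCr8), with capitals as above.
Tf: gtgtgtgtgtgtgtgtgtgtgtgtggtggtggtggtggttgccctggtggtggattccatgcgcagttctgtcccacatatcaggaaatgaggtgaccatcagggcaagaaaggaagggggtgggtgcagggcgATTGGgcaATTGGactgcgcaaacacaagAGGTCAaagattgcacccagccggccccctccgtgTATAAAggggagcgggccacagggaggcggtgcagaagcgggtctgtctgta
It held 2 matches to the CCAAT box, both read on the opposite strand, with 1 to AGGTCA and 1 to TATAAA.

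Tfrc (chromosome 11 of rn6, 71397383 to 71419223, minus strand) encodes transferrin receptor 1, whose mRNA is stabilised in cells short of iron. It was at 32.5, 33.0, 33.5, 31.5 and 32.4 CPM in Cmpd 1 rats, all below the 39.5, 40.2, 36.6, 38.6 and 40.9 CPM of Food matched rats. Obese rats had 42.1, 34.6, 31.3, 36.3 and 42.9 CPM and Lean rats 28.6, 44.7, 38.6, 38.2 and 33.1 CPM, both with a wider spread than the other groups. Cmpd 1 versus Food matched gave −0.27 on the log2 scale (SE 0.09, edgeR adjusted p = 0.046), and 12 of its 17 alternatives ended that call, with adjusted p of up to 0.098 (0.0019 in the fit of these groups alone). The value for Obese versus Lean was 0.03 (SE 0.09, edgeR adjusted p = 0.81).

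Cp and Steap4 were lower in Obese than in Lean animals and did not pass the test with Cmpd 1. Cp encodes ceruloplasmin, a copper-bearing ferroxidase that oxidises the iron leaving cells. Cp (chromosome 2 of rn6, 104744461 to 104799853, plus strand) was at 63.4, 77.0, 70.8, 68.1 and 68.8 CPM in Obese rats, all below the 111, 132, 104, 98.1 and 104 CPM of Lean rats. Cmpd 1 rats had 61.1, 82.4, 85.4, 75.6 and 70.9 CPM and Food matched rats 65.1, 83.3, 65.3, 62.5 and 62.3 CPM, overlapping each other and the Obese rats. Obese versus Lean gave a log2 fold change of −0.66 (SE 0.10, edgeR adjusted p = 9.6e-06), against 0.15 for Cmpd 1 versus Food matched (SE 0.10, edgeR adjusted p = 0.3). Without Lean rat 2, the highest, the disease value was −0.58 and Cp was no longer over a fold of 1.5, and without Lean rats 1 and 2 it was −0.55 (edgeR adjusted p = 0.00015). The adipocyte and hepatocyte marker sums were also lower in Obese than in Lean animals, at 16188 to 18756 CPM and 15.9 to 18.97 CPM in Obese rats against 21976 to 26278 CPM and 97.6 to 198 CPM in Lean rats, and their part in the value of Cp was not tested.

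The last 10431 bases of Cp are shared with Hps3, a gene of lysosome-related organelles on the other strand (chromosome 2 of rn6, 104789423 to 104799853). These positions are gene spans with introns, and whether the counted exons of Cp and Hps3 overlap was not tested. Whether the counting used strand is not given in the sources used here, so any reads in shared exons cannot be told apart. Hps3 went the other way from Cp, at 36.1 CPM on average in Obese and 25.3 CPM in Lean animals (log2 fold change 0.51, edgeR adjusted p = 2.5e-05). The Cp window before its RefSeq start, chr2:104368420-104368669, plus strand (GRCr8), is shown for the TATA box near its end.
Cp: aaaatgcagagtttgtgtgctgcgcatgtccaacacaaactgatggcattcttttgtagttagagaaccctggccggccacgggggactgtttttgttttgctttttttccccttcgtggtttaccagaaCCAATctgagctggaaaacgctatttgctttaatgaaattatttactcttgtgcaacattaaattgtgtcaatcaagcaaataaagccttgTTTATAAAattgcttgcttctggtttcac
TATAAA matched there on both strands over overlapping letters, and CCAAT matched at 1 place. Genes most like Cp over the 20 libraries were Pdlim2, which encodes a cytoskeletal adaptor (Pearson r = 0.959, 0.797 within groups), Cd55, a complement inhibitor (0.956, 0.884 within groups), and Efhd1, a mitochondrial calcium-binding protein (0.954, 0.776 within groups), again as a description.

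Steap4 is a metalloreductase of adipocytes and other cells that was first described as induced by tumour necrosis factor. Steap4 (chromosome 4 of rn6, 23090029 to 23135354, minus strand) was at 173, 163, 145, 120.3 and 139 CPM in Obese rats and at 225, 169, 239.8, 223 and 224 CPM in Lean rats, where Lean rat 2 lay within the Obese range. Cmpd 1 rats had 154, 133, 172, 182 and 153 CPM and Food matched rats 131, 147, 118, 158 and 158 CPM. Obese versus Lean gave a log2 fold change of −0.54 (SE 0.11, edgeR adjusted p = 0.00035), against 0.16 for Cmpd 1 versus Food matched (SE 0.11, edgeR adjusted p = 0.34). Without Lean rat 2 the disease value was −0.62 and Steap4 was a DEG, as it also was without Lean rats 1 and 2 (−0.63) and without Obese rat 1 (−0.60).

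Hp encodes haptoglobin, which binds free haemoglobin and is made by liver and by white fat. It gave 55 to 146 reads per library and is reported with that limit, since only uniquely mapped reads were counted and the part of near-identical copies was not tested. Hp (chromosome 19 of rn6, 42097995 to 42100804, plus strand) was at 1.96, 1.66, 1.59, 1.53 and 1.51 CPM in Obese rats, all above the 1.29, 1.05, 1.16, 1.43 and 1.07 CPM of Lean rats. Cmpd 1 rats had 2.21, 2.03, 1.85, 1.68 and 1.74 CPM and Food matched rats 2.21, 1.49, 2.00, 1.87 and 2.19 CPM, which overlapped. Obese versus Lean gave a log2 fold change of 0.46 (SE 0.14, edgeR adjusted p = 0.01), against −0.03 for Cmpd 1 versus Food matched (SE 0.14, edgeR adjusted p = 0.91). The 7 neutrophil markers, a cell type that also holds haptoglobin, summed to 117 to 153 CPM in Obese rats and 473 to 564 CPM in Lean rats, but this sum was nearly all Mpo (median 122 CPM in Obese and 478 CPM in Lean rats). Csf3r, another of the list, went the other way, at 3.83 to 6.56 CPM in Obese rats and 2.53 to 3.97 CPM in Lean rats, and of the 7 markers 1 was a DEG higher and 1 a DEG lower in Obese animals. The part of neutrophils in the value of Hp was not tested.

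Ireb2 encodes iron regulatory protein 2, an mRNA-binding sensor that is mostly controlled by degradation of the protein. Ireb2 (chromosome 8 of rn6, 59420123 to 59501118, plus strand) had group means of 53.9 ± 2.36 CPM in Cmpd 1, 55.7 ± 1.16 CPM in Food matched, 60.7 ± 4.11 CPM in Obese and 54.9 ± 7.33 CPM in Lean animals (SD, n = 5 each). The groups overlapped, and no contrast passed the test (log2 fold changes of −0.17 to 0.14 over the 6 contrasts). Lean rat 1 had the lowest value, 42.3 CPM, and the other 19 rats lay between 52.1 and 65.8 CPM. Without Lean rat 5 the value for Obese versus Lean was 0.19 (edgeR adjusted p = 0.047), and over all alternatives the adjusted p ran between 0.047 and 0.62.

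**Figure D4:**
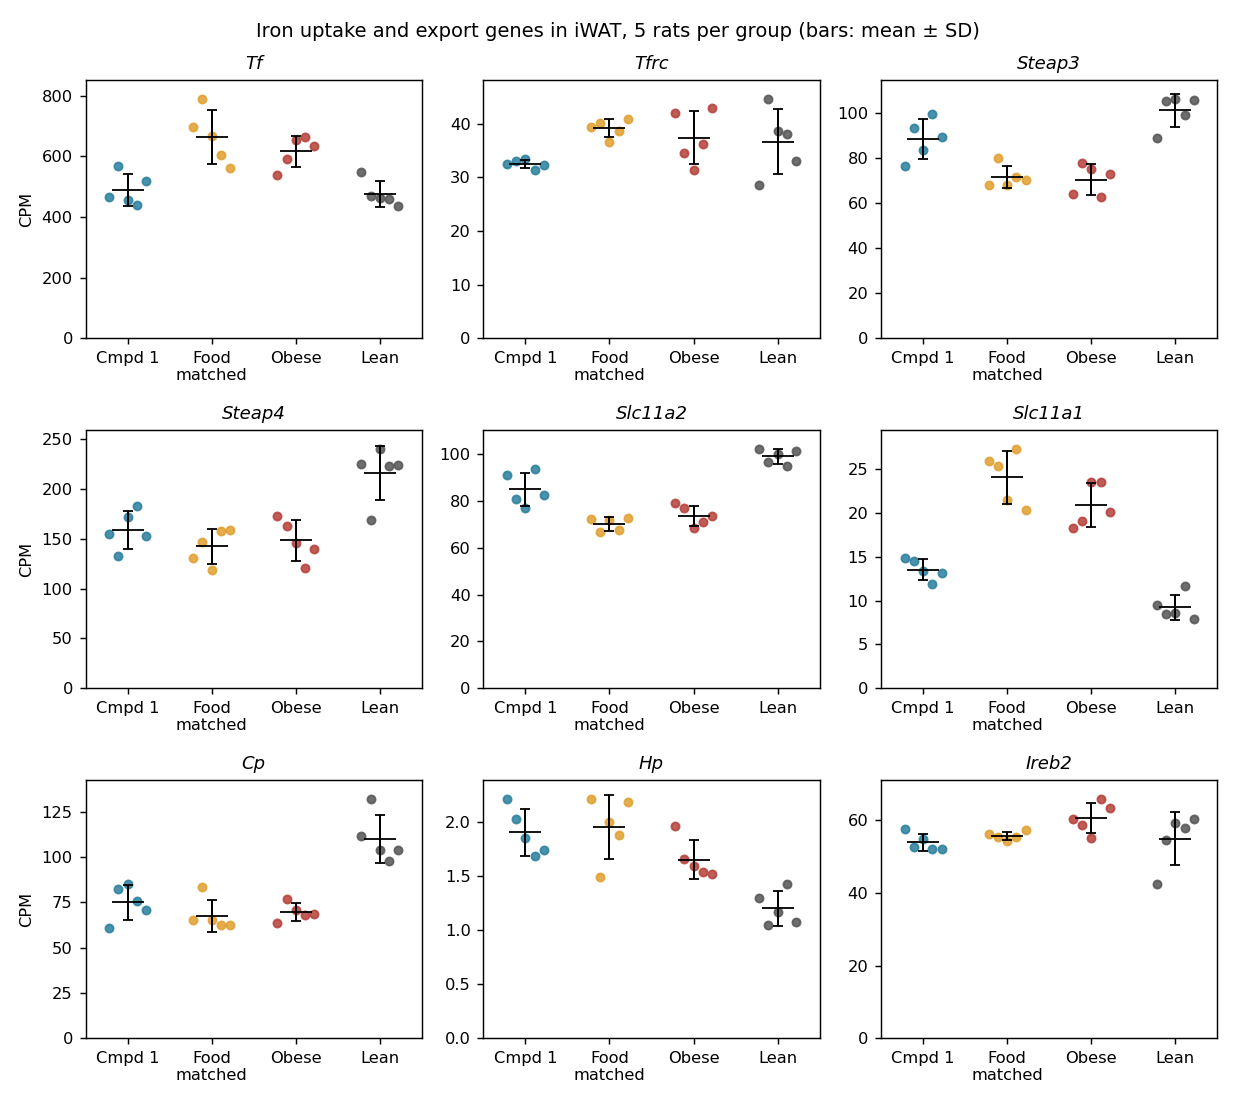
CPM of each of the 9 genes in every rat, with groups from left to right Cmpd 1, Food matched, Obese and Lean, points for rats 1 to 5 and bars for the mean and SD. Slc11a1 separates Lean, Cmpd 1 and the other groups, Slc11a2 places Cmpd 1 between Food matched and Lean, and Ireb2 overlaps in all 4 groups.

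In Cmpd 1 versus Obese animals 4 of 9 members changed, where 14% of all genes did: Slc11a1 had a log2 fold change of −0.62 (SE 0.11, edgeR adjusted p = 0.0013), Tf of −0.33 (SE 0.09, edgeR adjusted p = 0.018), Steap3 of 0.33 (SE 0.08, edgeR adjusted p = 0.0082) and Slc11a2 of 0.20 (SE 0.05, edgeR adjusted p = 0.016). This contrast shares its Cmpd 1 rats with Cmpd 1 versus Food matched and its Obese rats with Obese versus Lean. Slc11a1 was the 1 DEG, where 3.53% of all genes were DEGs, and it fell under the fold of 1.5 when scaled by library size alone (−0.57), without Obese rat 3 (−0.58) and without Cmpd 1 rat 4 (−0.58). Beside it, 7 of 10 macrophage markers were lower, 2 of them DEGs, with a median log2 fold change of −0.48. The adjusted p of Tf was 0.062 and that of Slc11a2 0.061 in edgeR without Cmpd 1 rat 4, the shallowest library. It was 0.052 for Tf with library size alone and 0.06 for Slc11a2 without Obese rat 4.

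Food matching, whose restriction eased as the Cmpd 1 group ate more, gave no call among the members. In Food matched versus Obese animals 0 of 9 changed in edgeR, as did 0 of all 17653 genes, although 1887 genes (10.7%) had an unadjusted p under 0.05. The members' log2 fold changes lay between −0.12 (Ireb2) and 0.24 (Hp), with 0.20 for Slc11a1 (SE 0.10, edgeR adjusted p = 0.51). The smallest unadjusted p of a member was 0.066, for Slc11a1. Across all genes limma-voom called 10 DEGs and DESeq2 69 in this contrast, of which 0 were members.

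**Figure D5:**
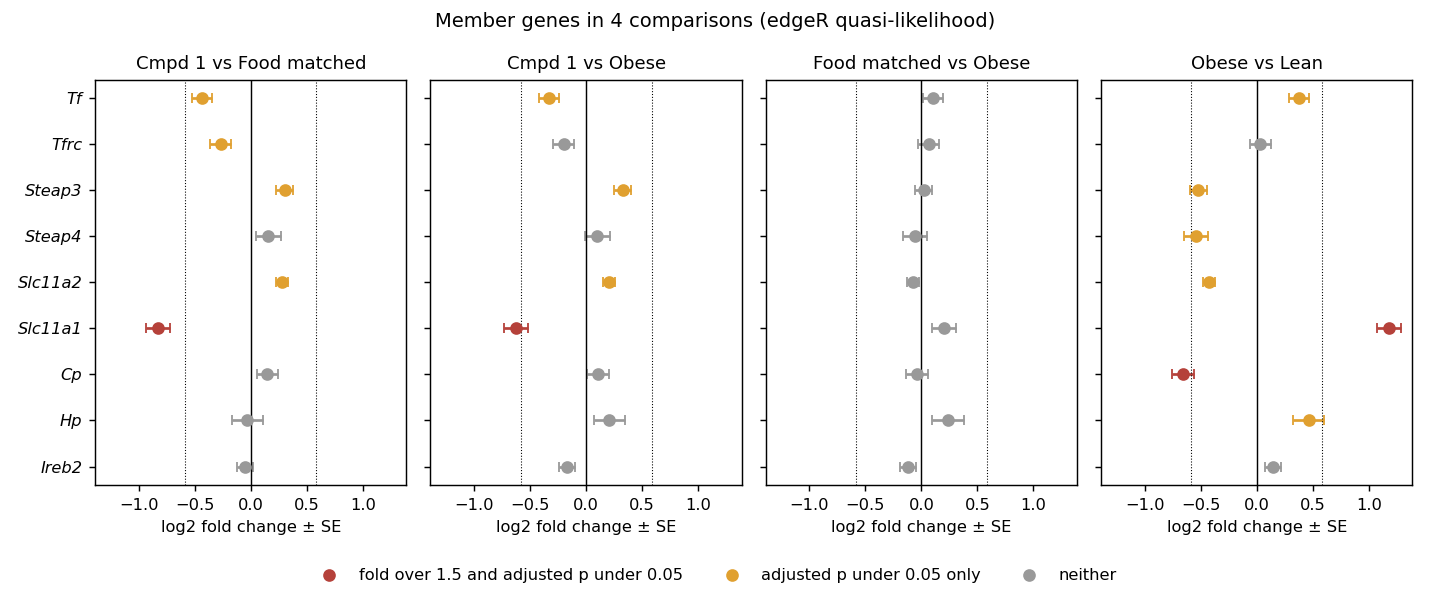
Log2 fold change with its standard error for the 9 genes in Cmpd 1 versus Food matched, Cmpd 1 versus Obese, Food matched versus Obese and Obese versus Lean, with dotted lines at a fold of 1.5. Slc11a1 passes the dotted line in 3 of the 4 panels and Cp in the Obese versus Lean panel, while no gene passes the test in Food matched versus Obese.

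Both remaining contrasts share the Lean rats with Obese versus Lean, and each has its own values. In Cmpd 1 versus Lean animals 6 of 9 members changed, where 39% of all genes did, and 1 was a DEG (16.6% of all genes). This DEG was Hp, with a log2 fold change of 0.67 (SE 0.14, edgeR adjusted p = 0.00084). Slc11a1 was at 0.56 (SE 0.11, edgeR adjusted p = 0.00036), just under the fold, and became a DEG with limma-voom (0.59), with library size alone (0.60), without Lean rat 4 (0.66) and without Cmpd 1 rat 4 (0.60). Cp was at −0.55 (edgeR adjusted p = 0.00013), and became a DEG without Lean rat 4 (−0.59), Cmpd 1 rat 2 (−0.59) or Cmpd 1 rat 3 (−0.60). Steap3, also among the 6, was at −0.20 (SE 0.08, edgeR adjusted p = 0.047), a call lost under 9 of 18 alternatives, with adjusted p of up to 0.15. Tf was at 0.04 (SE 0.09, edgeR adjusted p = 0.74).

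In Food matched versus Lean animals 7 of 9 members changed, where 52.2% of all genes did, and 4 were DEGs (25.3% of all genes). The DEGs were Slc11a1, with a log2 fold change of 1.39 (SE 0.11, edgeR adjusted p = 1.8e-09), Hp at 0.70, Cp at −0.70 (SE 0.10, edgeR adjusted p = 3.5e-06) and Steap4 at −0.60. Steap4 fell under the fold of 1.5 without any 1 of 5 rats (Lean rats 3, 4 and 5 and Food matched rats 1 and 3), with values between −0.58 and −0.54.

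A wider list of 43 symbols for iron and haem handling, outside the members, had 40 rows, of which 37 were tested. In Obese versus Lean animals 13 of these changed upward and 9 downward, which is 59.5% where 48.2% of all genes changed (23.7% higher and 24.5% lower). Of the list 6 were DEGs, and the median log2 fold change over the list was 0.07. These DEGs were 16.2% of the 37 tested, where 22.3% of all genes were DEGs. The DEGs were Hmox1, Flvcr2 and Tmprss6 (higher) and Cd163, Steap2 and Hfe2 (lower). Without Lean rat 3 the list held 10 DEGs. In Cmpd 1 versus Food matched animals 4 changed upward and 7 downward, which is 29.7% where 22.8% of all genes changed. The 4 DEGs, Hmox1, Flvcr2, Ftl1 and Slc39a14, were all lower with Cmpd 1, with a median of −0.07 over the list. These DEGs were 10.8% of the 37, where 6.19% of all genes were DEGs, and 820 of the 1092 DEGs over all genes were lower too. Against Obese animals 2 of the 37 changed upward and 9 downward with Cmpd 1, which is 29.7% where 14% of all genes changed, and 0 were DEGs in edgeR, limma-voom or DESeq2 (1 in edgeR without Cmpd 1 rat 1, and 3.53% of all genes). Several of these calls were lost under alternatives: Slc39a14 under 11 of 17 (adjusted p up to 0.13), Hmox1 under 7 (up to 0.089), Flvcr2 under 7 (up to 0.093) and Aco1, which was higher, under 2 (up to 0.059). The 9 genes of mitochondrial iron, haem and iron-sulphur synthesis held no DEG in any contrast. Among all genes the DEG shares were 22.3% for Obese versus Lean and 6.19% for Cmpd 1 versus Food matched. Of the 9, 3 changed upward and 0 downward with Cmpd 1 relative to Food matched animals, where 11.4% of all genes changed in each direction. For Obese versus Lean, 2 of the 9 changed upward and 2 downward, where 48.2% of all genes changed.

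The ferritin chains, which store iron, went different ways. Ftl1, the light chain, averaged 1444 ± 192 CPM in Cmpd 1, 2311 ± 296 CPM in Food matched, 2014 ± 100.1 CPM in Obese and 1695 ± 145 CPM in Lean animals (SD, n = 5 each). Ftl1 fell by 0.68 on the log2 scale in Cmpd 1 versus Food matched (SE 0.09, edgeR adjusted p = 8.6e-05), with no overlap between the groups, and was at 0.25 for Obese versus Lean (edgeR adjusted p = 0.029). The disease call was lost under 6 alternatives, among them without Lean rats 1 and 2 (0.19, edgeR adjusted p = 0.17). Fth1, the heavy chain, averaged 3136 ± 154 CPM in Cmpd 1, 3323 ± 147 CPM in Food matched, 3236 ± 121 CPM in Obese and 4006 ± 70.2 CPM in Lean animals. It was lower in Obese than in Lean animals (log2 fold change −0.31, SE 0.05, edgeR adjusted p = 2.2e-05) and at −0.08 for Cmpd 1 versus Food matched (edgeR adjusted p = 0.23). Ferritin genes have many processed copies in the genome, and Fth1 lies against Best1 on the other strand. The part of these in the reads was not tested, so the counts of both chains are uncertain.

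Of the haem genes, Hmox1 and Flvcr2 exceeded their Lean levels in Obese animals and were lower in Cmpd 1 than in Food matched animals. Cd163 was lower in Obese than in Lean animals. Hmox1, the inducible haem oxygenase that frees iron from haem, averaged 71.1 ± 6.05 CPM in Cmpd 1, 126 ± 22.3 CPM in Food matched, 91.6 ± 5.81 CPM in Obese and 45.8 ± 7.05 CPM in Lean animals. Hmox1 had log2 fold changes of −0.83 for Cmpd 1 versus Food matched (SE 0.11, edgeR adjusted p = 7.1e-05) and 1.00 for Obese versus Lean (SE 0.11, edgeR adjusted p = 2.4e-07). Flvcr2, a transporter of the haem exporter family, was at −0.79 (SE 0.12, edgeR adjusted p = 0.00021) and 1.32 (SE 0.12, edgeR adjusted p = 2.9e-08). Food matched animals averaged above Obese ones, by 0.47 for Hmox1 (edgeR adjusted p = 0.11, DESeq2 adjusted p = 0.0066) and 0.38 for Flvcr2 (edgeR adjusted p = 0.21). Against Obese animals the values with Cmpd 1 were smaller, at −0.37 for Hmox1 and −0.41 for Flvcr2, and neither was a DEG. Cd163, the macrophage receptor for haptoglobin-bound haemoglobin, averaged 72.3 ± 15.8 CPM in Obese and 191 ± 14.8 CPM in Lean animals (log2 fold change −1.40, SE 0.23, edgeR adjusted p = 3.6e-05). It was lower in Obese animals while the macrophage marker sum was higher, and did not pass the test for Cmpd 1 versus Food matched (−0.33, SE 0.23, edgeR adjusted p = 0.33).

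Among other import and control genes, Slc39a14 (ZIP14), a metal importer, averaged 30.7 ± 3.39 CPM in Cmpd 1, 49.3 ± 9.12 CPM in Food matched, 38.4 ± 3.30 CPM in Obese and 26.5 ± 2.81 CPM in Lean animals. Slc39a14 fell in Cmpd 1 relative to Food matched animals (log2 fold change −0.68, SE 0.11, edgeR adjusted p = 0.00025) and changed in Obese versus Lean without being a DEG (0.54, edgeR adjusted p = 0.00032). Steap2, a metalloreductase on the same chromosome as Steap4, was lower in Obese than in Lean animals (−0.84, SE 0.16, edgeR adjusted p = 0.00017). Aco1, iron regulatory protein 1, averaged 335 ± 17.0 CPM in Cmpd 1, 317 ± 27.5 CPM in Food matched, 293 ± 10.1 CPM in Obese and 268 ± 4.31 CPM in Lean animals, with a log2 fold change of 0.08 for Cmpd 1 versus Food matched (edgeR adjusted p = 0.32) and 0.13 for Obese versus Lean (edgeR adjusted p = 0.052). Tmprss6, a protease that restrains hepcidin in liver, was called higher in Obese than in Lean animals (2.04, SE 0.57, edgeR adjusted p = 0.0052) on 0 to 30 reads per library. Hfe2, haemojuvelin, a gene of muscle and liver, reached 25.9 and 50.2 CPM in Lean rats 1 and 2, the libraries with muscle transcripts. The other 18 had no more than 0.574 CPM, and without these rats its value for Obese versus Lean was no longer called.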

How the data were processed

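For 20 iWAT libraries (stranded mRNA kit) the authors mapped reads with STAR and deposited featureCounts output, the raw counts of uniquely mapping reads by gene, with gene positions and gene lengths in bases. The paper's methods name STAR v2.4.0h and rn6, and the processing notes of the submitters give STAR 2.5.2, Subread 1.5.1 and GRCh38, a human build. Totals were 31716457 to 74784655 counts per library.

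Groups came from the sample titles. CPM used TMM-scaled library sizes and log2 CPM a prior count of 2. Genes with 0 reads in 10 or more of 20 libraries (14892 of 32545) were dropped. edgeR 4.0.16 (R 4.3.3) fitted 1 quasi-likelihood model of 4 groups (16 residual degrees of freedom), with Benjamini-Hochberg adjustment over 17653 genes, and was tested on simulated data. Alternatives were DESeq2 1.42.0, limma-voom (limma 3.58.1), other scaling and filters, the 2 groups alone, a replicate block, and libraries left out. The rats were numbered 1 to 5 in each group, which the titles give without tying a number to a litter or day. The 40 pairs of libraries within a group all differed beyond sampling noise (chi-square per degree of freedom of at least 17.15).

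Members and lists were chosen with earlier results of these data known. Named beyond the members are the wider list's DEGs (at most 4 per role in each contrast among the obese groups and Obese versus Lean), Fth1, Ftl1 and Aco1, and the 3 genes closest to each member that was a DEG. Hps3 was added because it overlaps Cp. Promoter windows are RefSeq's (GRCr8), found for 8 of 10 members.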

Additional observations from a re-analysis of the deposited data

Results flagged for a closer look

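Within groups of 5 rats, some libraries stood apart from the others by Dixon's criterion, which compares the gap to the nearest rat with the range of the group. Chance alone flags about 5% of groups. Of 36 member-by-group sets 3 were flagged, and of 76 sets including the other named iron genes 6 were. Tf was at 549.7 CPM in Lean rat 1, and the next highest Lean rat had 469 CPM. Steap4 was at 169 CPM in Lean rat 2, and the next lowest had 223 CPM. Cp was at 83.3 CPM in Food matched rat 2, and the next highest had 65.3 CPM. Fth1 was at 4128 CPM in Lean rat 4, and the next highest had 3989 CPM. Hfe2 was at 0.0176 CPM (1 read) in Cmpd 1 rat 5 and 0 in the other 4, and at 0.574 CPM (31 reads) in Food matched rat 5, where the next highest had 0.0184 CPM.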

How the results depend on the processing

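Over 54 results for the members, 945 values were computed under alternatives, of which 897 kept direction and call at an adjusted p under 0.05, 27 changed that call and 21 changed sign; the cause of these changes was not tested. The DEG count of the members was 1 for Cmpd 1 versus Food matched under every alternative run. It was 2 for Obese versus Lean except without Obese rat 1 (3). Without Lean rat 2, and without Lean rats 1 and 2, Steap4 took the place of Cp among these 2. For Cmpd 1 versus Obese the count of 1 became 0 with library size alone and lay between 0 and 1 when 1 library was left out. For Cmpd 1 versus Lean the count of 1 became 2 with limma-voom and 2 with library size alone, and lay between 1 and 3 when 1 library was left out. The numbers of the rats did not pair them: 30 same-number pairs of libraries had r of −0.264 to 0.26 between deviations from the group means, and 3 of 20 libraries correlated best with their own number. With a replicate block the member counts were 2 (Obese versus Lean), 1 (Cmpd 1 versus Food matched), 1 (Cmpd 1 versus Obese), 0 (Food matched versus Obese), 1 (Cmpd 1 versus Lean) and 4 (Food matched versus Lean).

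No value that changed sign had passed the test. Hp for Cmpd 1 versus Food matched was 0.0182 with limma-voom and 0.0068 with library size alone. With library size alone Ireb2 was 0.0155 for Cmpd 1 versus Lean and Fth1 0.0117 for Cmpd 1 versus Obese. Ireb2 was −0.0868 for Food matched versus Lean without Lean rats 1 and 2, and Hfe2 −0.99 for Food matched versus Obese with limma-voom. When 1 library was left out, log2 fold changes for Food matched versus Obese ranged between −0.0214 and 0.0621 for Steap3, −0.1226 and 0.0085 for Steap4, −0.126 and 0.0001 for Cp, −2.7525 and 0.6678 for Hfe2, and −0.1164 and 0.4968 for Tmprss6. They ranged between −0.0158 and 0.1006 for Tf and −0.107 and 0.0101 for Ireb2 in Cmpd 1 versus Lean, between −0.0591 and 0.0651 for Ireb2 in Food matched versus Lean, between −0.0455 and 0.1126 for Tfrc in Obese versus Lean, and between −0.1154 and 0.0171 for Hp in Cmpd 1 versus Food matched. Hp, at 55 to 146 reads per library, and Tmprss6, at 0 to 30, rest on few reads.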
